A study of Mus musculus with 7 samples.

Results

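The 37 genes described here encode parts of the cardiac sarcomere, its Z-disc and its M-band, with the proteins that anchor, fold and turn over these structures. They were chosen by gene symbol for their role, with earlier results of these data known, and each symbol matched 1 of the 56980 gene rows of the FPKM table (fragments normalized by gene length and by the size of the library, so that levels can be compared between genes). Myocardial RNA came from male C57BL/6J mice bought at 8 weeks of age. The MI group was 3 mice whose left coronary artery had been tied off 4 days earlier, and the sham group was 4 mice that had the same operation without the ligation. Each mouse gave 1 library of total RNA, all mice were of the same wild-type strain, and the numbers of the mice do not pair them. The samples were whole myocardium, so each value is a mixture of cardiomyocytes and other cells.

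The sarcomere is the contractile unit of heart muscle. Thin filaments of actin, tropomyosin and troponin slide past thick filaments of myosin, titin spans from the Z-disc to the M-band as a spring, and the Z-disc joins the thin filaments of neighbouring sarcomeres. Desmin filaments, filamin C and the Xin proteins tie the Z-discs to each other and to the cell membrane, while chaperones and ubiquitin ligases fold and remove the filament proteins. In the heart these proteins carry force, and several Z-disc proteins are known as sensors of stretch.

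Depth was similar in all mice, from 19977712 to 23610870 fragments per library as recovered from the steps of the FPKM values. The mitochondrially encoded genes took 26.5% to 27.4% of the fragments in the sham group and 13.6%, 28.2% and 14.9% in MI replicates 1, 2 and 3. MI replicate 2 stood apart from the other MI mice: over the genes tested its log2 values correlated with theirs at r = 0.897 and r = 0.920, against 0.984 between MI replicates 1 and 3 and 0.989 to 0.992 between sham mice. Most values of the MI group are therefore given for each MI mouse, or with and without MI replicate 2. The sum over 20 non-sarcomeric cardiomyocyte genes was between 10240 and 11469 FPKM in the sham group and 5330, 9888 and 6756 FPKM in the MI mice. Single genes of that list ran from Dmd, at 3.31 to 3.96 FPKM in the sham group, to Fabp3, at 2631 to 3105 FPKM. The adult skeletal muscle myosin genes Myh1, Myh2 and Myh4 were at most 0.0175 FPKM in any mouse.

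All 37 members passed the filter on low values (FPKM 1 or more in 3 or more mice), which left 11431 genes. Mean levels in the sham group ran from 5.56 FPKM for Mlip to 1469.9 FPKM for Tcap, with 16 members over 100 FPKM and 2 under 10. The fewest fragments behind a member in any mouse were 152, for Myot, and the most were 138461, for Tpm1. Together the members took 5.38% to 5.63% of the fragments outside the mitochondrial genes in the sham group, and 3.45%, 5.59% and 4.06% in MI replicates 1, 2 and 3. In such bulk samples fewer cardiomyocytes and less RNA per cardiomyocyte cannot be told apart.

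**Figure D1:**
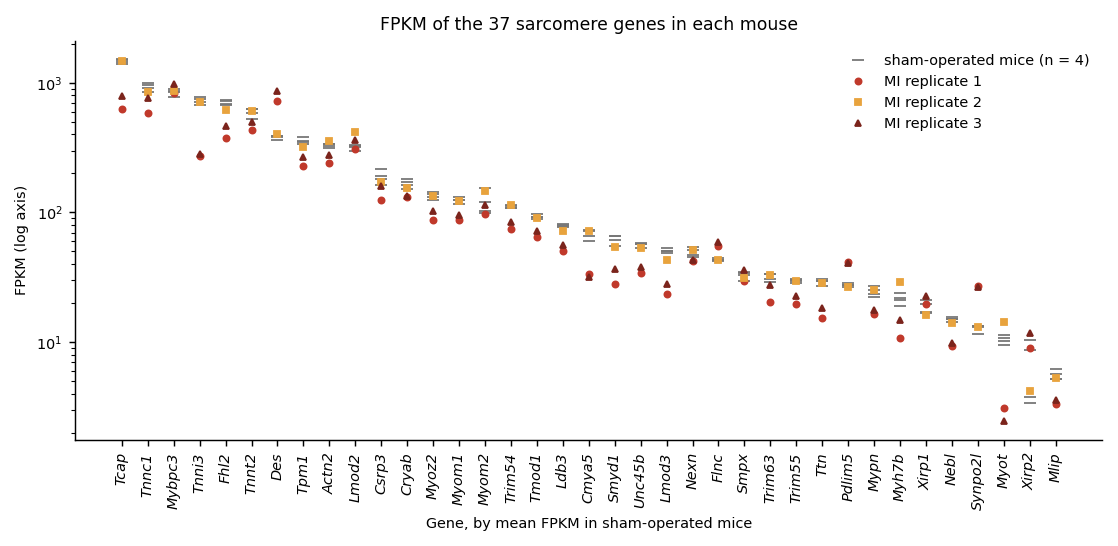
FPKM of each of the 37 members in each mouse on a log axis, ordered by the mean of the sham group. Grey dashes are the 4 sham mice and coloured symbols the 3 MI mice, and most members of MI replicates 1 and 3 lie under the sham dashes while MI replicate 2 lies on them.

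Most sarcomere genes were lower in MI replicates 1 and 3 and close to the sham level in MI replicate 2. MI replicate 1 was below every sham mouse in 29 of the 37 members, where 20.3% of all genes tested were, and above every sham mouse in 4, where 68% of all genes were. MI replicate 3 was below in 27 members, against 19.7% of all genes, and above in 9, against 65.9%. MI replicate 2 was below in 7 members, against 30.2% of all genes, and above in 5, against 20.4%, and in the other 25 members it lay within the sham range. In 27 members MI replicates 1 and 3 were both below every sham mouse, where at most 19.7% of all genes can be. In 33 members MI replicate 1 was lower than MI replicate 3, a count for which no share of all genes was taken. The median change of all genes was 0.36 in MI replicate 1 and 0.30 in MI replicate 3. The 4 members above every sham mouse in both were Des, Flnc, Pdlim5 and Synpo2l.

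Across the 3 MI mice, the median log2 fold change of the members on the log2(FPKM + 1) scale was -0.31, and it was -0.58, -0.02 and -0.36 in MI replicates 1, 2 and 3 taken singly. The median of all genes tested was 0.21, so that the median member stood at -0.52 relative to it, and 32 of the 37 members lay under the median gene. In 28 members the log2 fold change was below 0, against 27.0% of all genes, while relative to 20 other cardiomyocyte genes, 29 were above 0, against 93.8% of all genes. With limma and Benjamini-Hochberg adjustment over all 11431 genes, no member reached an adjusted p under 0.05 in either direction, where 0.0175% of all genes were called higher and 0.00875% lower. The lowest adjusted p of a member was 0.108. At an unadjusted limma p under 0.05, 2 members were higher, against 29.5% of all genes, and 12 were lower, against 9.85%. When a log2 fold change over 0.5 was asked for as well, Des and Synpo2l were higher, against 17.8% of all genes, and 7 members were lower, against 4.8%: Cmya5, Fhl2, Lmod3, Smyd1, Tcap, Tnni3 and Ttn. Scaling every mouse by its own median log ratio gave 0 higher and 19 lower members by the same rule, against 9.39% and 10.1% of all genes under that scaling. Rescaling FPKM to TPM, which gives all mice the same total, gave 3 higher and 3 lower members, against 29.4% and 2.07% of all genes.

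The groups did not overlap at all in 7 members. Only Des was higher in every MI mouse than in every sham mouse, where 16.1% of all genes tested were. Fhl2, Ldb3, Lmod3, Nebl, Smyd1 and Tpm1 were lower in every MI mouse, where 9% of all genes were. With MI replicate 2 left out, 4 members passed an adjusted limma p of 0.05 on the higher side, against 57% of all genes, and 26 on the lower side, against 14.7%. The higher members were then Des, Flnc, Pdlim5 and Synpo2l, and the 7 that did not pass were Lmod2, Mybpc3, Myom2, Nexn, Smpx, Xirp1 and Xirp2.

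**Figure D2:**
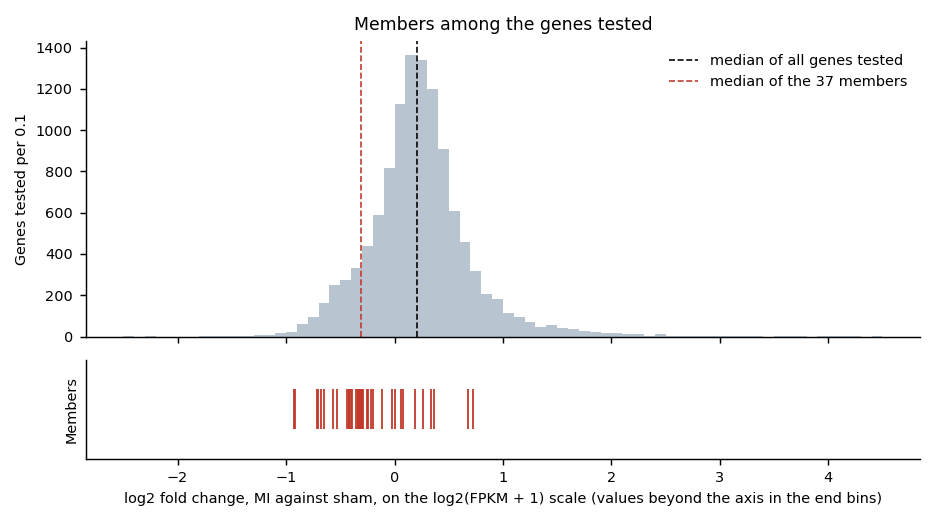
The upper panel counts the 11431 genes tested by log2 fold change, MI against sham, and the lower panel marks each of the 37 members. The median of all genes was 0.21 and that of the members -0.31, and the members reach from -0.93 to 0.72.

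Markers of fibroblasts and macrophages were higher in MI replicates 1 and 3, where most members were lower, and those of smooth muscle and endothelium were so in part. In MI replicate 2, where most members were near the sham level, the fibroblast sum was above every sham mouse and the macrophage sum within their range. The summed level of 8 fibroblast genes was 122 to 145 FPKM in the sham group and 2492, 232 and 1923 FPKM in MI replicates 1, 2 and 3. All 8 had a log2 fold change above 0. The summed level of 8 macrophage genes was 196 to 249 FPKM in the sham group and 1319, 237 and 1134 FPKM in the MI mice, again above 0 in 8 of 8. Of 7 smooth muscle genes, with the member Des left out, 5 were tested and 4 were above 0, where 73% of all genes were. Their sums were 106 to 129 FPKM in the sham group and 218, 101 and 260 FPKM in the MI mice. In MI replicate 2 the sum lay below every sham mouse, as did Acta2 and Smtn, the genes that made up most of it. Tagln, Myh11, Lmod1, Cnn1 and, barely, Actg2 were above every sham mouse in MI replicate 2. Of 6 endothelial genes 5 were above 0, with sums of 187 to 216 and of 242, 199 and 293 FPKM and a median log2 fold change 0.09 above that of all genes, while in single genes Fabp4 was higher in every MI mouse, at 0.49, and Kdr lower, at -0.20. The part of these cells in the members' values was not tested.

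Promoter elements of 2 kinds known to bind muscle regulators were found in a larger share of the members' windows than of all promoter windows, which is a description with no test, and the stretches that hold them are printed to show the elements in the members named. Windows from 250 bases before to 50 bases after the start site were taken from RefSeq on GRCm38.p6, which had 40 windows for 29 of the 37 members. The MEF2 element, bound by the MEF2 factors, was matched on both strands in 5 of the 40 windows (12.5%) and in 0.557% of the 32851 windows of all genes. The CArG box, bound by SRF, was matched in 6 of the 40 windows (15%), belonging to 4 members, and in 1.63% of all windows. The M-CAT letters CATTCC were in 32.5% of member windows and 14.7% of all, the TATA letters TATAAA in 17.5% and 13.6%, the E-box CANNTG in 77.5% and 72.3%, and GATA in 80% and 57.9%, where matches of these elements may overlap. A match describes the letters and is not a binding site that was measured. In the 4 stretches below, read 5′ to 3′ on the strand of the gene, the capitals mark the MEF2 element, whose first base lies 90, 109, 166 and 74 bases before the start site in Mybpc3, Synpo2l, Ttn and Xirp2.
Mybpc3, chr2:91118044-91118073, plus strand: tggaatttgtCTATATTTAGcaggtggcta
Synpo2l, chr14:20668444-20668473, minus strand: gaaatttgtaCTATAATTAGttctaggagt
Ttn, chr2:76982694-76982723, minus strand: ttctgaaaggCTAAATTTAGcactgccaat
Xirp2, chr2:67445918-67445947, plus strand: agctcagttcCTAAAAATAGgtgctaggtt
In the next 4 stretches the capitals mark the CArG box, whose first base lies 96, 35, 99 and 162 bases before the start site in Fhl2, Ldb3, Myom1 and Nebl.
Fhl2, chr1:43196838-43196867, minus strand: catttagagaCCAAAAAAGGcttgcaggag
Ldb3, chr14:34588697-34588726, minus strand: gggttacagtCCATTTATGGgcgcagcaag
Myom1, chr17:71019448-71019477, plus strand: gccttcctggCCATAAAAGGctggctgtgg
Nebl, chr2:17462999-17463028, minus strand: gctcccatctCCTAAATTGGctggaaatgc
The 4 members whose MEF2 element is printed here had values in both directions, with log2 fold changes of 0.68 for Synpo2l, 0.33 for Xirp2, 0.08 for Mybpc3 (-0.19 with scaling by the median log ratio) and -0.53 for Ttn. The 4 members with a CArG box were below 0, as were 75.7% of all 37 members, at -0.56 for Fhl2, -0.42 for Nebl, -0.42 for Ldb3 and -0.29 for Myom1, while relative to 20 other cardiomyocyte genes Nebl, Ldb3 and Myom1 were above 0, at 0.05, 0.05 and 0.18. In the GENCODE M21 annotation the Fhl2 stretch lies within a first exon of the gene, the Myom1 and Nebl stretches lie within the gene and outside its exons, and the other 5 printed here lie outside the gene. These elements were searched after the values were known.

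Among the factors that bind such elements or work with them, 9 of 10 were tested. Srf was at 18.6 to 19.97 FPKM in the sham group and at 16.9, 17.1 and 21.7 FPKM in the MI mice, and Mef2d, the tested MEF2 gene with the higher level, was at 15.5 to 17.5 and at 15.1, 16.1 and 15.5 FPKM. The groups did not overlap in 3 factors, all lower in the MI group, where 9% of all genes were lower and 16.1% higher without overlap. Hand2, a factor of heart development, was at 33.3, 35.9, 37.6 and 39.5 FPKM in the sham group and at 15.0, 23.0 and 16.4 FPKM in the MI mice, a log2 fold change of -0.99. Myocd, a coactivator of SRF, was at 2.49 to 3.95 FPKM and at 1.54, 2.41 and 1.55 FPKM, a log2 fold change of -0.61. Nkx2-5, a cardiac homeobox factor, was at 20.2 to 21.6 FPKM and at 17.3, 15.3 and 17.5 FPKM, a log2 fold change of -0.31.

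The thin filament members were the 3 troponin genes Tnnt2, Tnni3 and Tnnc1, the tropomyosin gene Tpm1, the tropomodulin gene Tmod1, which caps the pointed ends, and the leiomodin genes Lmod2 and Lmod3, which elongate them. Their median log2 fold change was -0.36, with 6 of 7 below 0, and relative to 20 other cardiomyocyte genes it was 0.11. Tnni3, the inhibitory troponin subunit of the adult heart (chr7:4518305-4524229, minus strand, GRCm38), had, with Myot, one of the lowest log2 fold changes of the members. It was at 751, 671, 705 and 784 FPKM in the sham group and at 272, 716 and 283 FPKM in MI replicates 1, 2 and 3. MI replicates 1 and 3 were thus at 37.4% and 38.8% of the sham mean and MI replicate 2 at 98.4%, within the sham range. The log2 fold change was -0.93 ± 0.34 (SE, n = 4 sham and 3 MI mice, limma adjusted p = 0.11), and -1.39 ± 0.07 without MI replicate 2.

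Tnnc1, the calcium-binding troponin subunit, was at 915, 988, 966 and 844 FPKM in the sham group and at 584, 846 and 762 FPKM in the MI mice, with MI replicate 2 at the bottom of the sham range. Tnnt2, which binds troponin to tropomyosin, was at 530.0 to 625 FPKM and at 430.3, 611 and 495 FPKM. The ratio of Tnni3 to Tnnt2 within a mouse was 1.08 to 1.48 in the sham group and 0.632, 1.17 and 0.572 in the MI mice, so the troponin subunits did not move by the same factor in MI replicates 1 and 3. The ratio of Tnnc1 to Tnnt2 was 1.55 to 1.59 in the sham group and 1.36, 1.38 and 1.54 in the MI mice, with no overlap.

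The leiomodins parted. Lmod3 (chr6:97238534-97252759, minus strand) was at 53.4, 50.2, 50.2 and 48.8 FPKM in the sham group and at 23.4, 42.9 and 28.0 FPKM in the MI mice, all below the sham mice. Its log2 fold change was -0.72 ± 0.19 (SE, limma adjusted p = 0.108), and its unadjusted p of 0.0069 was the lowest of the members in that limma fit. Lmod2, the main cardiac leiomodin (chr6:24597762-24605414, plus strand), was at 296, 319.9, 330.4 and 327 FPKM in the sham group and at 311, 417 and 364 FPKM in the MI mice, and here MI replicate 2 was the highest mouse. Its log2 fold change was 0.18 ± 0.14 (SE), and it was 0.08 ± 0.08 without MI replicate 2 and -0.09 under scaling by the median log ratio. The ratio of Lmod2 to Lmod3 was 5.55 to 6.69 in the sham group and 13.3, 9.72 and 13.03 in MI replicates 1, 2 and 3. All MI mice, MI replicate 2 among them, were above the sham mice in this ratio. The 9 ratios of members examined were chosen after the values were seen and have no test.

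Tpm1 was at 351, 380.2, 357 and 336 FPKM in the sham group and at 228, 321 and 266 FPKM in the MI mice, all below the sham mice, with a log2 fold change of -0.40. Tmod1 was at 69.7%, 97.9% and 77.8% of its sham mean in the 3 MI mice, and 32.6% of its exon bases are shared with a gene on the other strand in GENCODE M21.

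**Figure D3:**
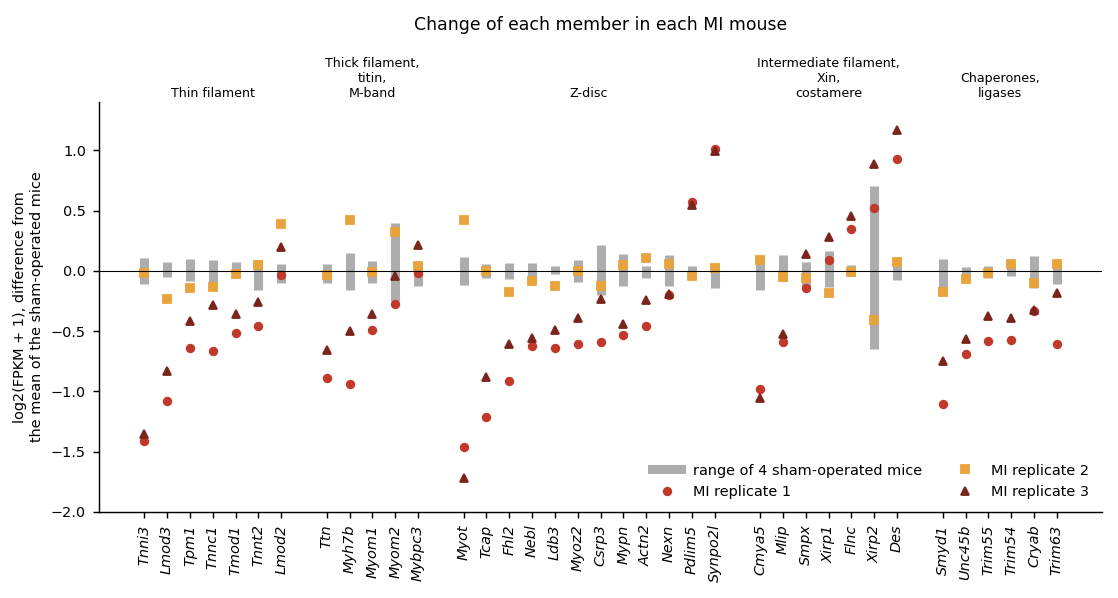
Difference of each member from the sham mean on the log2(FPKM + 1) scale, by role. The grey bar is the range of the 4 sham mice and the symbols are the 3 MI mice, with Des in MI replicate 3 and Synpo2l in MI replicates 1 and 3 far to the higher side, Tnni3 and Myot in MI replicates 1 and 3 far to the lower side, and MI replicate 2 near 0 for most members.

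The thick filament, titin and M-band members had a median log2 fold change of -0.29, with 3 of 5 below 0, and of 0.18 relative to the other cardiomyocyte genes. Ttn, the titin spring (chr2:76703980-76982547, minus strand), was at 30.5, 27.2, 29.6 and 29.7 FPKM in the sham group and at 15.3, 28.4 and 18.2 FPKM in the MI mice, with only MI replicate 2 in the sham range. Its log2 fold change was -0.53 ± 0.20 (SE, limma adjusted p = 0.111). Mybpc3, the cardiac myosin-binding protein C (chr2:91118144-91136516, plus strand), was at 854, 869, 890.4 and 772 FPKM in the sham group and at 836, 871 and 978 FPKM in the MI mice, where only MI replicate 3 left the sham range, upwards. Between the groups the log2 fold change was 0.08 ± 0.14 (SE), and -0.19 with scaling by the median log ratio. The ratio of Mybpc3 to Ttn was 26.0 to 31.9 in the sham group, 54.7 and 53.8 in MI replicates 1 and 3, and 30.6 in MI replicate 2.

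The M-band genes Myom1 and Myom2 encode myomesins that crosslink the thick filaments. Myom1 was at 70.8%, 99.3% and 77.5% of its sham mean in the MI mice. Myom2 varied as much among sham mice, from 98.6 to 155 FPKM, as among MI mice, from 97.0 to 147 FPKM, and its log2 fold change was 0.001 ± 0.21 (SE). Myh7b, a slow-tonic type myosin heavy chain, was at 49.8% and 69.2% of the sham mean in MI replicates 1 and 3 and at 135% in MI replicate 2, above every sham mouse.

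The 12 Z-disc members had a median log2 fold change of -0.33, with 10 below 0, and of 0.15 relative to the other cardiomyocyte genes. Tcap, the telethonin that caps titin at the Z-disc (chr11:98383811-98384953, plus strand), had the highest sham level of all members. It was at 1452, 1490.3, 1407 and 1530.0 FPKM in the sham group and at 631, 1466 and 796 FPKM in the MI mice, so MI replicates 1 and 3 were at 42.9% and 54.1% of the sham mean. The log2 difference was -0.70 ± 0.28 (SE, limma adjusted p = 0.117). Actn2, the alpha-actinin that crosslinks actin at the Z-disc, was at 316 to 339 FPKM in the sham group and at 239, 354 and 278 FPKM in the MI mice. The ratio of Tcap to Actn2 was 4.15 to 4.68 in the sham group and 2.64, 4.14 and 2.86 in the MI mice, with MI replicate 2 just outside the sham range.

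Fhl2, a LIM-domain protein of the Z-disc and the nucleus (chr1:43123074-43196984, minus strand), was at 720.3, 686, 668 and 735 FPKM in the sham group and at 373, 620.4 and 461 FPKM in the MI mice. All MI mice were below the sham mice, with a log2 fold change of -0.56 ± 0.19 (SE, limma adjusted p = 0.108). Ldb3, the PDZ-LIM protein ZASP, and Nebl, the cardiac nebulette, were also lower in every MI mouse. MI replicate 2 was nearest the sham mice in both, at 91.5% and 94.0% of the sham mean. Fhl2, Ldb3 and Nebl are 3 of the 4 members whose promoter stretch holds a CArG box. That element was searched after these values were known, and a link between the box and the values was not tested.

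Myot, a myotilin that binds alpha-actinin and filamin, had both the lowest and the highest of its values in the MI group. It was at 10.7, 11.3, 9.46 and 10.1 FPKM in the sham group and at 3.12, 14.3 and 2.45 FPKM in MI replicates 1, 2 and 3. MI replicates 1 and 3 were the lowest and MI replicate 2 the highest of all 7 mice. The log2 fold change was -0.92 ± 0.48 (SE, limma adjusted p = 0.172), and -1.59 ± 0.10 without MI replicate 2.

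Synpo2l and Pdlim5 were the Z-disc members on the other side. Synpo2l, an actin-bundling synaptopodin-like protein (chr14:20658946-20668354, minus strand), was at 13.1, 13.4, 13.4 and 11.5 FPKM in the sham group and at 26.9, 13.1 and 26.5 FPKM in the MI mice. MI replicates 1 and 3 were at 209% and 206% of the sham mean and MI replicate 2 lay within the sham range. Its log2 fold change was 0.68 ± 0.24 (SE, limma adjusted p = 0.109), and 1.00 ± 0.07 without MI replicate 2. Pdlim5, a PDZ-LIM protein of the same family as Ldb3, was at 28.4, 26.5, 27.7 and 27.6 FPKM in the sham group and at 41.4, 26.7 and 40.8 FPKM in the MI mice, with a log2 fold change of 0.36 ± 0.16 (SE, limma adjusted p = 0.134), of 0.56 ± 0.05 without MI replicate 2 and of 0.09 under scaling by the median log ratio.

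The remaining Z-disc members lay closer together. Csrp3, the muscle LIM protein, was at 65.9%, 91.1% and 84.3% of its sham mean in the MI mice, Myoz2, a calcineurin-binding calsarcin, at 65.4%, 99.99% and 75.8%, and Mypn, the myopalladin, at 67.5%, 103% and 72.4%. Nexn, the nexilin, was at 86.3%, 104% and 86.9%, with a log2 fold change of -0.12 ± 0.11 (SE). It was -0.20 ± 0.08 without MI replicate 2 and 0.08 after rescaling to TPM.

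**Figure D4:**
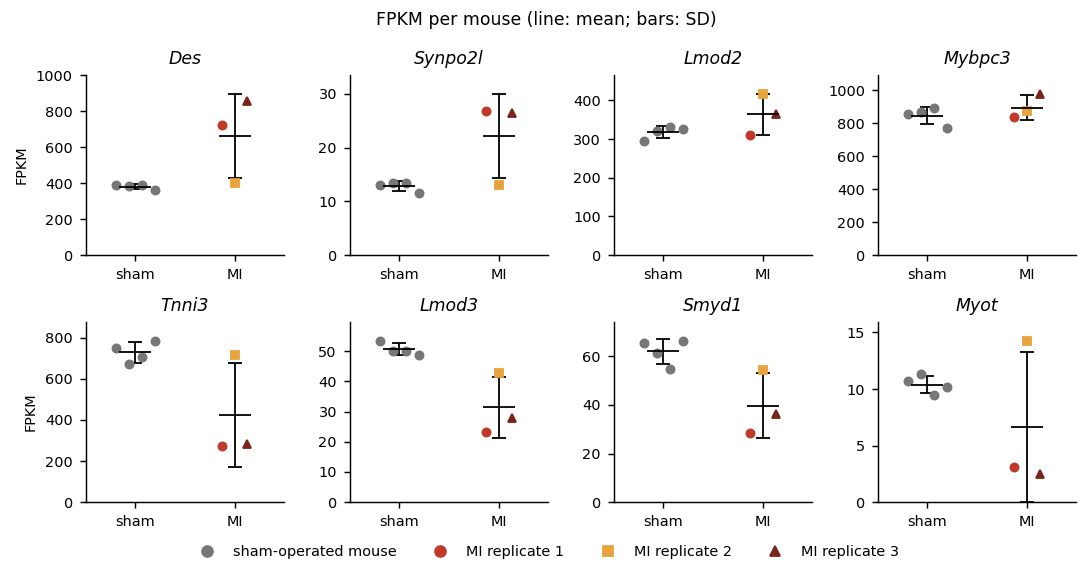
FPKM of 8 members in each mouse, with the mean as a line and the SD as bars (n = 4 sham and 3 MI mice) and axes from 0. Des and Synpo2l are high in MI replicates 1 and 3, Tnni3, Lmod3, Smyd1 and Myot are low in them, and Lmod2 and Mybpc3 are not low in any MI mouse.

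The intermediate filament, Xin and costamere members were the group with the highest median, 0.06, the value of Xirp1, which was -0.20 under scaling by the median log ratio, and 4 of 7 were above 0, against 73% of all genes. That median lay 0.15 under the median gene. Des, the desmin of the filaments around the Z-disc (chr1:75360329-75368579, plus strand), was at 389, 383, 391.9 and 360.3 FPKM in the sham group and at 724, 402 and 859.6 FPKM in the MI mice. All MI mice were above the sham mice, MI replicate 2 only by a small margin, at 105% of the sham mean. The log2 fold change was 0.72 ± 0.25 (SE, limma adjusted p = 0.109), and 1.05 ± 0.08 without MI replicate 2. The ratio of Des to Actn2 was 1.10 to 1.23 in the sham group and 3.03, 1.13 and 3.09 in MI replicates 1, 2 and 3. Des is also expressed in smooth muscle, where Tagln, an actin-binding protein of those cells, was at 9.21 to 10.2 FPKM in the sham group and at 51.8, 11.8 and 50.3 FPKM in the MI mice. Of the 7 smooth muscle genes other than Des, 5 were above every sham mouse in MI replicates 1 and 3: Tagln, Acta2, Cnn1, Actg2 and Lmod1. Of all genes tested, 68% were above every sham mouse in MI replicate 1 and 65.9% in MI replicate 3. Tagln, Cnn1, Lmod1 and, barely, Actg2 were above every sham mouse in MI replicate 2 as well. Acta2, the smooth muscle actin, was at 46.8 to 74.0 FPKM and at 121, 45.4 and 162 FPKM. The remaining genes of the 7 were Myh11 and Smtn. Myh11, the smooth muscle myosin, was at 5.34 to 7.07 FPKM in the sham group and at 6.30, 7.66 and 6.42 FPKM in the MI mice. Smtn, the smoothelin, was at 37.6 to 40.4 FPKM and at 29.4, 33.9 and 33.5 FPKM. The part of these cells in the level of Des was not tested.

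Flnc, the filamin C that crosslinks actin at Z-discs and costameres, was at 42.2 to 44.9 FPKM in the sham group and at 55.3, 42.9 and 59.7 FPKM in the MI mice, with a log2 fold change of 0.26 ± 0.13 (SE) that was 0.40 ± 0.06 without MI replicate 2 and -0.01 under scaling by the median log ratio. Xirp1, one of the actin-binding Xin proteins, was at 16.8 to 21.0 FPKM and at 19.8, 16.2 and 22.8 FPKM, with MI replicate 1 inside that range, MI replicate 2 below it and MI replicate 3 above it. Xirp2 differed among the sham mice themselves, at 3.77, 10.3, 3.42 and 8.74 FPKM, and was at 8.97, 4.22 and 11.8 FPKM in the MI mice. A log2 fold change of 0.33 ± 0.44 (SE), or 0.70 ± 0.41 without MI replicate 2, lay within the spread between sham mice.

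Cmya5, the myospryn of the costamere (chr13:93040713-93144724, minus strand), went the other way. It was at 60.2, 65.5, 72.8 and 72.1 FPKM in the sham group and at 33.8, 72.0 and 32.0 FPKM in the MI mice, with a log2 fold change of -0.65 ± 0.28 (SE, limma adjusted p = 0.127), and of -1.02 ± 0.09 without MI replicate 2. Of its exon bases 21.7% are shared with genes on the other strand. Mlip, which binds lamin A/C, was at 60.1%, 95.4% and 64.0% of the sham mean, and Smpx, a small muscle protein of the costamere, at 90.3%, 95.7% and 110.3%.

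All 6 chaperones, myosin-folding factors and ubiquitin ligases had a log2 fold change below 0, against 27.0% of all genes, with a median of -0.31. Relative to the other cardiomyocyte genes 5 of the 6 were above 0, against 93.8% of all genes. Smyd1, a muscle methyltransferase that works with the myosin chaperone (chr6:71213940-71322233, minus strand), was at 65.3, 61.3, 54.9 and 66.3 FPKM in the sham group and at 28.2, 54.5 and 36.3 FPKM in the MI mice. All MI mice were below the sham mice, MI replicate 2 barely so. The log2 fold change was -0.68 ± 0.21 (SE, limma adjusted p = 0.108), and Unc45b, the myosin chaperone itself, was at -0.44 ± 0.16 (SE, limma adjusted p = 0.109) and at -0.63 ± 0.07 without MI replicate 2.

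Trim63, the ubiquitin ligase MuRF1, was at 29.2, 33.4, 33.6 and 30.5 FPKM in the sham group and at 20.5, 32.9 and 27.7 FPKM in the MI mice, with MI replicate 2 in the sham range and a log2 fold change of -0.24 ± 0.16 (SE), or -0.39 ± 0.12 without MI replicate 2. Its relatives Trim55 and Trim54 were at 65.8%, 98.9% and 76.3% and at 66.9%, 104% and 75.9% of their sham means, and 26.6% of the exon bases of Trim54 are shared with a gene on the other strand. Cryab, the small heat shock protein that protects desmin and titin, was at 78.9%, 93.2% and 79.7%, and 17.0% of its exon bases are shared with another gene.

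A second comparison asked how the members stood against other genes of the cardiomyocyte. In each mouse the mean log2 value of the 20 non-sarcomeric cardiomyocyte genes, such as the calcium pump Atp2a2 and the ryanodine receptor Ryr2, was subtracted. These genes were lower in the MI group themselves, with a median log2 fold change of -0.52 and 19 of 20 below 0. Relative to them 29 of the 37 members were above 0, against 93.8% of all genes tested, and the median member stood at 0.16 where the median gene stood at 0.68. No member reached a limma adjusted p under 0.05 in either direction, as did 0% of all genes. At an unadjusted limma p under 0.05, 7 members were higher, against 55.9% of all genes: Des, Flnc, Lmod2, Mybpc3, Myom2, Pdlim5 and Synpo2l. Tnni3 was lower, against 0.411% of all genes.

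The members furthest above the reference were Des at 1.20 ± 0.35, Synpo2l at 1.15 ± 0.38 and Pdlim5 at 0.83 ± 0.30 (log2 difference and SE), and in MI replicate 2 alone they were at 0.13, 0.08 and 0.015. Those furthest below were Tnni3 at -0.46 ± 0.19, Myot at -0.45 ± 0.36 and Lmod3 at -0.25 ± 0.15. Without MI replicate 2 they were at -0.71, -0.92 and -0.28, and Tcap at -0.37 and Cmya5 at -0.34 then lay below Lmod3. Lmod2, at 0.65 ± 0.13, had the lowest unadjusted p of the members, 0.000836 in the limma fit. Relative to the reference 8 members were higher in every MI mouse, against 29.9% of all genes: Actn2, Des, Lmod2, Mybpc3, Synpo2l, Tnnt2, Trim54 and Trim63. Lmod3 was lower in every MI mouse, against 0.989% of all genes. With MI replicate 2 left out, 18 members were higher and 6 lower at a limma adjusted p under 0.05, against 88.6% and 2.35% of all genes. The lower ones were Cmya5, Lmod3, Myot, Smyd1, Tcap and Tnni3.

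**Figure D5:**
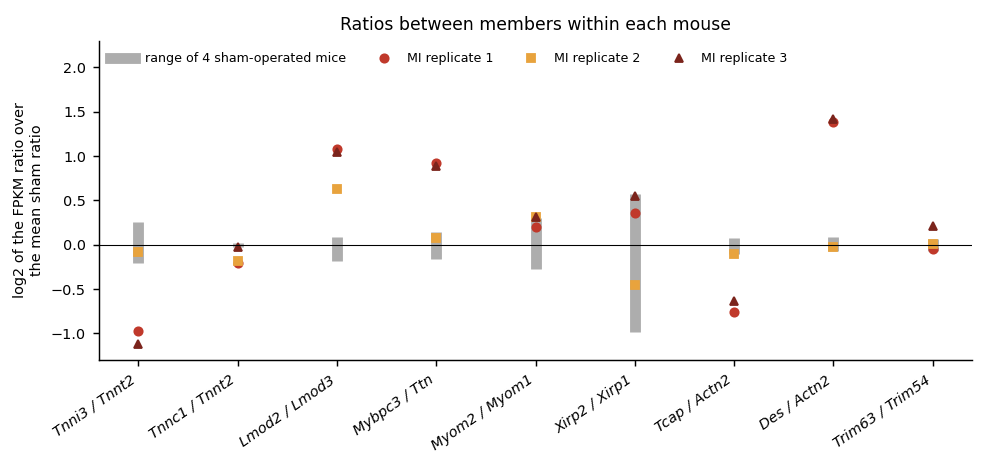
Log2 of the FPKM ratio of 9 pairs of members in each mouse, divided by the mean ratio of the sham group. The grey bar is the range of the 4 sham mice and the symbols are the MI mice, and for Lmod2 to Lmod3 all MI mice lie above the bar, at ratios of 9.72 to 13.3 against 5.55 to 6.69.

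Of 37 further sarcomere genes that are not members, 31 were tested. Their median log2 fold change was 0.05, with 8 higher and 6 lower at an unadjusted limma p under 0.05, against 29.5% and 9.85% of all genes. In 5 of them every MI mouse was below every sham mouse, against 9% of all genes, and in 2 above, against 16.1%. The ventricular myosin light chains Myl2 and Myl3 were among the lower ones, at log2 fold changes of -0.75 and -0.65, as was the slow skeletal troponin T gene Tnnt1 at -0.47. Myl2 was at 1000 to 1148 FPKM in the sham group and at 469, 937 and 595 FPKM in the MI mice. Myl3 was at 1432.2 to 1593.8 and at 709, 1430.7 and 858 FPKM, and Tnnt1 at 3.022 to 3.563 and at 1.32, 3.021 and 1.93 FPKM. MI replicate 2 was the highest of the 3 in each, and in Myl3 and Tnnt1 it was only just below the lowest sham mouse. The LIM genes Pdlim3, at 1.44, and Fhl1, at 0.78, were the higher ones. Fhl1 was at 6.92 to 7.70 FPKM in the sham group and at 13.4, 8.09 and 19.97 FPKM in the MI mice. Pdlim3, a relative of Pdlim5, was at 1.60 to 1.81 FPKM in the sham group and at 10.2, 1.96 and 10.9 FPKM in the MI mice.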

How the data were processed

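The authors deposited FPKM values, 1 column per mouse, and all columns were used (0 left unused). Per the labels the reads were placed on mm10. The submitters' processing notes name CASAVA 1.8, HISAT2, SAMtools 1.3.1 and edgeR, while the annotation, counter and strand setting are not given in the sources used here. If strand was not used, genes sharing exon bases cannot be told apart.

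Identifiers were joined to GENCODE M21 (91.5% matched). Whole fragments were recovered from the FPKM steps for 30503 of 30504 genes above 0, within 0.05 of a whole number. The groups were compared by limma 3.58.1 in R 4.3.3, with an intensity trend, on log2(FPKM + 1) for genes with FPKM 1 or more in 3 or more mice, with Benjamini-Hochberg adjustment. A pseudocount of 1 understates changes of low genes. The same fit was run relative to 20 cardiomyocyte genes. The scripts were tested on simulated data. The 3 MI mice limit the precision.

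The members and lists were chosen with earlier results of these data known. All members are named, with values per mouse for the highest and lowest of each role, those that did not overlap against the median direction, the 3 highest and 3 lowest relative to the cardiomyocyte genes and the 5 highest in the sham group. Tnnt2, Tpm1, Actn2, Flnc and the Xin genes were added after their values were seen. Of the other lists at most 5 genes that did not overlap were to be named, and fibroblast and macrophage genes are given as sums only. Srf, Mef2d, Myh1, Myh2, Myh4, Myh11, Acta2, Cnn1 and Actg2 are exceptions, the last 4 named after their values were seen. Of the promoter stretches, 1 is not reported here.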

Additional observations from a re-analysis of the deposited data

How the results depend on the processing

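In the direct comparison of MI with sham, no member was called at an adjusted p under 0.05 under most alternatives. These were the alternatives of scaling, filter, pseudocount, trend, fragment weights and replicate block. In that comparison calls appeared only with sample weights (9 higher and 27 lower members, 9952 genes in all) and without MI replicate 2 (4 higher and 26 lower). The sample weights did not converge and put nearly all the weight of the MI group on MI replicate 3. The number of all genes called, 3, became 0 with TPM, 0 with centring on the cardiomyocyte genes, 0 with the filter on the mean, 15 with median log-ratio scaling, 11 with the mitochondrial genes left out, 21 without a filter, 6 with a pseudocount of 0.1, 15 with quantile normalization and 0 with the replicate block, and the cause was not tested. Past both lines (unadjusted p under 0.05 and a log2 fold change over 0.5) there were 3 lower members with TPM, 6 higher and 0 lower with centring on the cardiomyocyte genes, 0 higher and 19 lower with median log-ratio scaling, 12 lower with the mitochondrial genes left out, 1 higher and 12 lower with quantile normalization, and 4 higher and 12 lower with sample weights. Members without overlap on the higher side became 2 with TPM, 8 with centring, against 1 on the lower side, 2 with median log-ratio scaling and 2 with quantile normalization. Of all genes, 29.9% were higher and 0.989% lower without overlap with centring. Relative to the cardiomyocyte genes, 4 members were called higher without a filter, and 24 higher and 6 lower with sample weights, while quantile normalization left 5 higher and 2 lower without overlap. Past both lines, 17.8% of all genes were higher and 4.8% lower in the main fit. With TPM these shares were 29.4% and 2.07%, and with median log-ratio scaling 9.39% and 10.1%. For member counts under the other settings no such share was taken, so a shift of all genes was not separated from one of the members.

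The replicate numbers do not pair the mice: the deviations of mice with the same number correlated at 0.074, -0.016 and -0.080. With the replicate block, 0 members were higher and 2 lower past both lines, and relative to the cardiomyocyte genes 2 members were called higher.

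Leaving out each mouse in turn gave 0 to 8195 genes called, 0 to 4 higher and 0 to 26 lower members called, 0 to 3 higher and 1 to 15 lower past both lines, and 1 to 4 higher and 6 to 27 lower without overlap. Relative to the cardiomyocyte genes the ranges were 0 to 18 higher and 0 to 6 lower called, and 8 to 24 higher and 1 to 6 lower without overlap. The high ends all came without MI replicate 2. There 57% of all genes were called higher and 14.7% lower, and 88.6% and 2.35% relative to the cardiomyocyte genes. For the ranges past both lines and without overlap, no shares of all genes were taken. The median member relative to the median gene ran from -0.80 without MI replicate 2 to -0.33 without MI replicate 1.

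The sign of the log2 fold change turned under some alternatives. With centring on the cardiomyocyte genes, which were lower in the MI group, Tnnt2 at 0.25, Tnnc1 at 0.11, Tpm1 at 0.070, Actn2 at 0.27, Myom1 at 0.18, Ldb3 at 0.050, Csrp3 at 0.15, Myoz2 at 0.14, Nebl at 0.049, Tmod1 at 0.17, Mypn at 0.16, Smpx at 0.45, Nexn at 0.35, Cryab at 0.22, Trim54 at 0.17, Trim55 at 0.15, Trim63 at 0.23, Myh7b at 0.13, Unc45b at 0.029 and Mlip at 0.081 were above 0. It turned with TPM for Smpx at 0.17 and Nexn at 0.080, with median log-ratio scaling for Mybpc3 at -0.19, Myom2 at -0.27, Xirp1 at -0.20, Flnc at -0.0055 and Lmod2 at -0.089, with the mitochondrial genes left out for Mybpc3 at -0.064, Myom2 at -0.14 and Xirp1 at -0.073, with quantile normalization for Myom2 at -0.19 and Xirp1 at -0.15, with the replicate block for Myom2 at -0.061 and with sample weights for Myom2 at -0.072 and Smpx at 0.14. Leaving out mice turned Smpx, to 0.040 without MI replicate 1, 7.2e-05 without MI replicate 2, 0.0041 without sham replicate 1 and 0.0016 without sham replicate 2, Myom2, to -0.16 without MI replicate 2, -0.083 without sham replicate 1 and -0.061 without sham replicate 4, and Xirp1, to -0.045 without MI replicate 3, the low end of a range whose high end was 0.19 without MI replicate 2. Relative to the cardiomyocyte genes, quantile normalization turned Ldb3 at -0.065, Tcap at 0.11, Nebl at -0.10, Myh7b at -0.019, Unc45b at -0.064 and Mlip at -0.094, the replicate block Unc45b at -0.011, and single mice Nebl at -0.0039 (up to 0.087 without MI replicate 2) and Unc45b at -0.0015 (without MI replicate 1), Myh7b at -0.041 (without MI replicate 2) and Unc45b at -0.011 (without sham replicate 4). None of these members was called in the main comparison of all 7 mice. With sample weights, which did not converge, 9 higher and 27 lower members were called, Smpx at 0.14 among them (limma adjusted p = 0.011). Each member had 152 or more fragments in each mouse.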

Other observations

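Some sarcomere-associated genes outside the members, chosen here after their values were seen, were high in MI replicates 1 and 3 and at the sham level in MI replicate 2. Ankrd1, a titin-binding ankyrin repeat protein, was at 53.3 to 71.6 FPKM in the sham group and at 324, 59.9 and 353 FPKM in MI replicates 1, 2 and 3. Myh7, the slow myosin heavy chain of the fetal ventricle, was at 89.4 to 104 FPKM and at 267, 94.8 and 255 FPKM, while Myh6, the adult cardiac heavy chain, was at 3796 to 4086 FPKM and at 1908, 4001 and 2252 FPKM. The tropomyosin genes Tpm3 and Tpm4 ran opposite to Tpm1 in MI replicates 1 and 3, while in MI replicate 2 Tpm4 was below the sham mice, as Tpm1 was, and Tpm3 within their range. Tpm4 was at 19.1 to 21.1 FPKM in the sham group and at 54.9, 17.8 and 47.5 FPKM in the MI mice, and Tpm3 was at 4.11 to 4.63 FPKM and at 14.7, 4.43 and 11.1 FPKM. Tropomyosin genes resemble each other, so reads shared between them are uncertain. The level of Acta1, the skeletal actin gene, was spread widely among the sham mice, from 74.4 to 342 FPKM, and was 488, 183 and 568 FPKM in the MI mice.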
